A study of Homo sapiens with 64 samples.

Results

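The genes described here are CHAC1, CHAC2, CTH, CBS, ASNS, PYCR1, ALDH18A1 and GPT2, 8 of the 60649 genes in the count table. They were chosen by name for their place in the metabolism of glutathione, cysteine, asparagine, proline and alanine. Earlier results of these data were known at that choice, so their calls beside the share of all genes are no independent test. On GRCh38 (positions from GENCODE 29) they lie at chr15:40952962-40956519 (CHAC1), chr2:53767792-53775196 (CHAC2), chr1:70411218-70439851 (CTH), chr21:43053191-43076943 (CBS), chr7:97852118-97872542 (ASNS), chr17:81932384-81942412 (PYCR1), chr10:95605929-95656706 (ALDH18A1) and chr16:46884378-46931297 (GPT2). RNA was sequenced from H460, H838, H1703 and H1755, which are 4 established lines of human non-small cell lung carcinoma. Cells of each line were given MYCi975 at 5 µM, which inhibits MYC, TMP195 at 25 µM, which blocks class IIa histone deacetylases, both compounds together (the combination, whose doses the labels do not repeat), or DMSO as vehicle, 1 day after plating. RNA was taken after 24 hours, and each of the 16 groups held 4 libraries. The labels do not say whether the 4 were separate cultures, so the p-values measure the spread between these libraries, which may be technical.

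CHAC1 and CHAC2 encode gamma-glutamylcyclotransferases that cleave glutathione, the main thiol of the cell, inside the cytosol. CBS and CTH catalyse the consecutive steps of transsulfuration, which turns homocysteine into cysteine, a building block of glutathione. ASNS makes asparagine from aspartate and glutamine, ALDH18A1 and PYCR1 carry out the first and last steps of proline synthesis from glutamate in mitochondria, and GPT2 is the mitochondrial alanine aminotransferase. CHAC1, ASNS, CTH, PYCR1 and GPT2 are known from other work as genes that the transcription factor ATF4 can turn on when amino acids run short or the endoplasmic reticulum is stressed.

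Libraries held 17352066 to 34236552 counted reads, and all 64 lay closest to libraries of their own line. Levels are CPM, reads of a gene relative to the TMM-scaled total of its library. The line markers below are given on unscaled totals. A gene was called changed at an adjusted p below 0.05 in edgeR's quasi-likelihood test, adjusted by Benjamini-Hochberg over all genes tested in the line, and a fold change is the treated over the vehicle group on the log2 scale with its standard error, from 4 libraries against 4. The keratins KRT8 and KRT18 were high in H460, H838 and H1755 (lowest 125 CPM, for KRT18 in H1755). They were low in H1703, at 16.1 to 31.0 CPM over both genes. The other epithelial markers did not follow this order. Median KRT19 was 730 CPM in H460 but 2.76 in H838, 4 in H1703 and 3.78 in H1755. EPCAM and CDH1 had line medians of 0.049 (CDH1 in H460) to 3.94 CPM (CDH1 in H838). The leukocyte marker PTPRC was at most 0.154 CPM in any library. The blood marker CD3E reached 2.23 CPM in H838, and the endothelial PECAM1 and fibroblast COL1A1 reached 6.07 and 28.4 in H1755. The libraries fall into sets that mostly do not follow treatment. In H838, though, TMP195 replicates 1 to 3 lie in a set that holds no vehicle library. EEF1G was at 0 in 57 libraries and held counts in 7 of H460 (replicates 1 and 2 of MYCi975, TMP195 and vehicle, and combination replicate 1). Mitochondrial ribosomal RNA took 5.1 to 10.7% of the reads in the 16 libraries labelled replicate 4, against 10.1 to 19.1% in 36 others, and 7.4 to 10.2% in 5 libraries whose column header is spelled differently (H838 TMP195 replicates 1 to 3, H838 MYCi975 replicate 3 and H1703 combination replicate 2).

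The stretch around the transcription start is shown for 3 of the genes, CHAC1 and ASNS, which had the largest changes with the combination, and ALDH18A1, which had none called in the fits of group means. RefSeq windows (build GRCh38.p14, 250 bases before to 50 after the annotated start, read in the direction of transcription) were at hand for 6 of the 8 genes. They were searched on both strands for TGATGNAA, the core of the element bound by ATF4 with a CCAAT/enhancer-binding protein, for TGACGT, the core of the cyclic AMP response element, and for CACGTG, the E-box bound by MYC and related factors. No match overlapped a match to another motif. Capitals mark the matches, and a match on the opposite strand appears as its reverse complement.
CHAC1, chr15:40953221-40953520, plus strand: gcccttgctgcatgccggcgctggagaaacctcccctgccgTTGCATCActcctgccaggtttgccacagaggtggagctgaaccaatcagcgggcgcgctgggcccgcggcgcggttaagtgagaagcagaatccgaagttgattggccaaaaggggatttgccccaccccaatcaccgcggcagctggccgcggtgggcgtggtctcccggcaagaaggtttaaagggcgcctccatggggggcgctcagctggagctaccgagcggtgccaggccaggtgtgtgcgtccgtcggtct
ASNS, chr7:97872359-97872658, minus strand: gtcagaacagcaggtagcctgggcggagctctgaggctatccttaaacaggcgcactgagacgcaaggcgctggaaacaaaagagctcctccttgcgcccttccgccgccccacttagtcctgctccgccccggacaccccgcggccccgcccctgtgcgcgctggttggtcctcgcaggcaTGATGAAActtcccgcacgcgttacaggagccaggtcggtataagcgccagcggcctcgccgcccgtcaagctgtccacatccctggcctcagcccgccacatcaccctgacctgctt
ALDH18A1, chr10:95656662-95656961, minus strand: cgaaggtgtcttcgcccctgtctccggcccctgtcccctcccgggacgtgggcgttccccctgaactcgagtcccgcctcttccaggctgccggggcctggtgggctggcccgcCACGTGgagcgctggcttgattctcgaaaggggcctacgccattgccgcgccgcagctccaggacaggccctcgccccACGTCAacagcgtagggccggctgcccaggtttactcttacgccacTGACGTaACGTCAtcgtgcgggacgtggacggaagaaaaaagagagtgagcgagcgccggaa
TGATGNAA occurred on the opposite strand starting 209 bases before the CHAC1 start and on the sense strand 68 bases before the ASNS start, and in no window of the other 4 genes. The ASNS window shown is 1 of 2 annotated starts, and the other held none of the 3 motifs. It was found in 3.62% of all 35116 promoter windows. ALDH18A1 had 3 matches to TGACGT and 1 to CACGTG. CTH had 1 match to TGACGT, 147 bases before its start, and the windows of CHAC2 and CBS held none of the 3 motifs. TGACGT and CACGTG were found in 7.98% and 7.26% of all windows. These matches describe letters in the windows and do not show that a factor binds there.

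In vehicle the lines differed in most of these genes. Per kilobase of exon, PYCR1 (9.77 to 49.3 CPM per kilobase over the line means) and ALDH18A1 (up to 39.9) stood highest, and CHAC1 stood at 0.162 to 0.201 in 3 lines but at 3.86 ± 1.18 in H1703 (SD, n = 4). CHAC1 had 11.2, 5.67, 6.66 and 8.17 CPM in the H1703 vehicle libraries, against at most 0.914 CPM in any vehicle library of the other 3 lines. H1703 was the line with the least CTH and CHAC2 and the most CHAC1, CBS and PYCR1. CHAC1 in vehicle was 4.18 ± 0.41 higher (log2) in H1703 than in H1755, and the other 3 lines were not called different from each other (adjusted p = 0.54 to 0.902). CTH averaged 11.1 ± 5.38 CPM in H838, 9.62 ± 2.59 in H460, 4.56 ± 1.09 in H1755 and 2.02 ± 0.395 in H1703, and only the first pair in that order was not called different (adjusted p = 0.522). CBS averaged 8.56 ± 1.55 CPM in H1703, 4.5 ± 0.505 in H838, 2.82 ± 1.34 in H1755 and 1.41 ± 0.369 in H460, with each neighbouring pair called different. PYCR1 likewise differed between all neighbours, with means of 142 ± 12.3 CPM in H1703, 92.5 ± 7.05 in H460, 51.7 ± 4.41 in H1755 and 28.2 ± 3.31 in H838. ALDH18A1 averaged 150 ± 13.6 CPM in H460, 120 ± 24.5 in H1755, 108 ± 6.55 in H1703 and 62 ± 8.43 in H838, and H1703 and H1755 were not called different (adjusted p = 0.369). CHAC2 was highest in H460 at 19.1 ± 2.12 CPM and lowest in H1703 at 7.84 ± 0.608, with H838 (11.1 ± 1.93) and H1755 (10.8 ± 2.78) not called different (adjusted p = 0.808). GPT2 was called higher in H1755 (22.2 ± 2.78 CPM) than in the other 3 lines, whose means of 15.8 to 16.3 CPM were not called different (adjusted p = 0.724 to 0.912). Line differences were common among all genes. Of the 8 genes, 5 were called for H460 against H838, where 62.7% of all genes tested were called, 7 for H460 against H1703 (61.6%), 7 for H460 against H1755 (60.2%), 7 for H838 against H1703 (59.7%), 5 for H838 against H1755 (55.9%) and 7 for H1703 against H1755 (58.8%). ASNS counts among these, but its reads were not counted alike in H460 (described with ASNS), so its difference from H460 is not a difference in level.

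**Figure D1:**
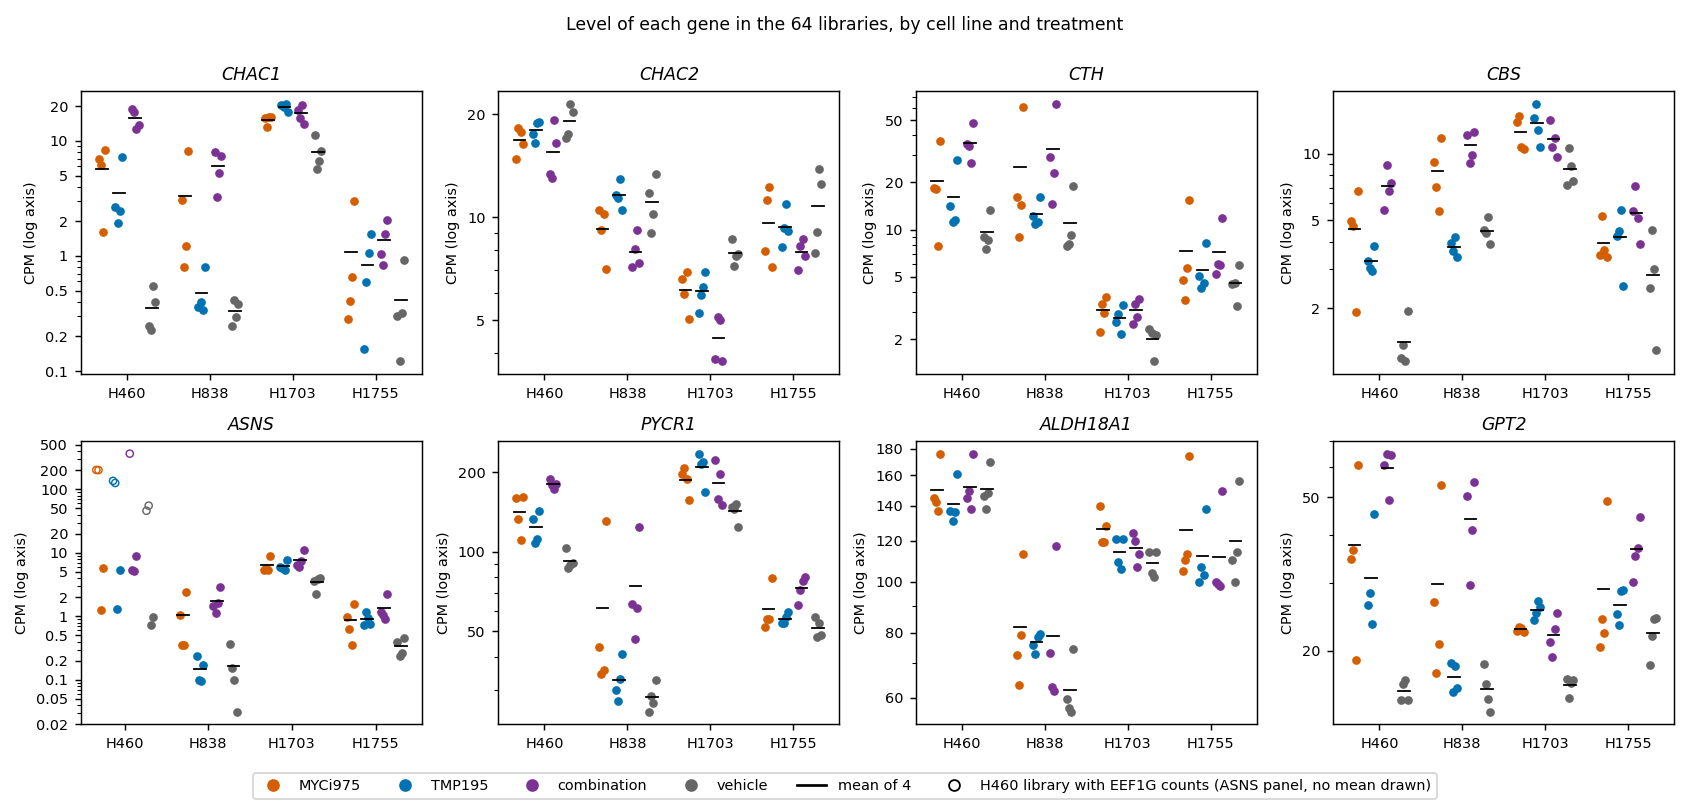
CPM of each gene (log axis) in all 64 libraries, grouped by line, with MYCi975, TMP195, combination and vehicle from left to right; points are replicates 1 to 4, lines are means, and open circles mark the H460 libraries with EEF1G counts, shown for ASNS. CHAC1 in vehicle lies under 1 CPM in 3 lines and between 5.67 and 11.2 CPM in H1703, and ALDH18A1 lies between 56.5 and 176 CPM in every library.

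With MYCi975 some of the 8 genes were called higher in H460 and H1703, CHAC1 and GPT2 in both. In H460 4 of the 8 genes rose (CHAC1, CBS, PYCR1 and GPT2), where 1.09% of 21226 genes tested were called. In H1703 3 rose (CHAC1, ASNS and GPT2), where 10.2% of 20827 genes were called. In H838 none of the 8 and 0% of 20624 genes were called by edgeR, although 1541 genes and 7 of the 8 were under 0.05 before adjustment. DESeq2 called 3 of the 8 there. The share of all genes called by DESeq2 is not given, here or below. Its calls are therefore not read as particular to the 8 genes. In H1755 edgeR called none of the 8, with 1 at an unadjusted p below 0.05, none by DESeq2 and 0.0643% of 20218 genes called. Same-numbered libraries deviated together in H460, H1703 and H1755. Their numbers partly follow the library sets, and pairing beyond the sets was not tested. With the replicate number as a block the calls were 5 in H460 (CTH added), 8 in H1703 (CHAC2 lower, the others higher) and 2 in H1755 (CTH and ASNS higher). That fit called 6.52%, 25.6% and 9.23% of all genes in those lines. In H838, where the numbers did not pair, a term for the library sets gave 3 calls (CHAC1, CBS and ASNS higher) with 0.354% of all genes called. Within the largest library set of H838 none of the 8 was called by edgeR (0.0298% of all genes called), CHAC1 and CBS having an adjusted p of 0.228 and ASNS one of 0.621. In H1755 the term for library sets gave 0 calls among the 8 (2.41% of all genes), as did the largest set alone (0.583%). The set term gave 6 calls in H460 (7.5% of all genes; CTH and ASNS added) and 8 in H1703 (24.5%), and the largest set alone 6 (2.3%) and 5 (11.4%).

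With TMP195 alone CHAC1 was the gene called in both H460 and H1703. In H460 CHAC1 rose (1 of 8, with 1.13% of all genes called), and in H1703 CHAC1, CBS, ASNS, PYCR1 and GPT2 rose (5 of 8, 9.65%). None of the 8 was called by edgeR or DESeq2 in H838, where 0.572% of all genes were called, or in H1755, where 0.43% were. At an unadjusted p below 0.05 stood 0 and 1 of the 8. In H838 TMP195 replicates 1 to 3 belong to the set with the other header spelling and no vehicle library does. Treatment and set can hardly be told apart there. The replicate block applied in all 4 lines, but in H838 its pairs 1 to 3 cross library sets. With it 4 genes rose in H460 (CBS, PYCR1 and GPT2 added, 5.15% of all genes called) and none was called in H838 (7.46%). In H1703 6 were called (CHAC2 lower, 23.8%), and CBS and ASNS rose in H1755 (10.5%). The term for library sets kept ASNS in H1755 (adjusted p = 0.0371, 4.29% of all genes called) but not CBS (0.116), and the largest set alone gave 0 calls there (ASNS at 0.0735, 1.82% of all genes). In H460 the set term called 6 of the 8 (5.48% of all genes) and the largest set alone 5 (1.99%), and in H1703 both called 6 (22.7% and 17.5%). In H838 the set term, like DESeq2, called none of the 8 (0.32% of all genes).

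The combination gave more calls among the 8 genes than either single agent in each line. CHAC1, CTH, CBS, PYCR1 and GPT2 rose in H460 (5 of 8, 15.7% of all genes called). In H838 CHAC1, CBS, ASNS, PYCR1 and GPT2 rose (5 of 8, 3.24%). In H1703 CHAC1, CTH, ASNS, PYCR1 and GPT2 rose and CHAC2 fell (6 of 8, 38.3%), and in H1755 ASNS rose (1 of 8, 1.69%). The median log2 change of the 8 genes with the combination was 1.9 in H460 (1.16 with MYCi975 and 0.86 with TMP195), 1.44 in H838 (1.02 and 0.15) and 0.69 in H1755 (0.44 and 0.27). In H1703 the combination had the lowest median of the 3 treatments, 0.42, with 0.5 for MYCi975 and 0.6 for TMP195. The median over all genes tested lay between -0.03 and 0.02. With the replicate block in H838 and H1755, and the term for library sets in H460 and H1703 where combination and vehicle numbers did not pair, 7 genes were called in each line, all but ALDH18A1, with CHAC2 lower and the other 6 higher. These fits called 14.9% of all genes in H838, 24.2% in H1755, 31.5% in H460 and 45.8% in H1703. The set term gave 8 calls in H838 (17.7%; ALDH18A1 added, adjusted p = 0.0247) and 6 in H1755 (15%; CHAC2 lost, 0.0706). Within the largest library set the calls were 6 in H838 (8.43% of all genes; CHAC2 lost, adjusted p = 0.137), 5 in H1755 (7%; CHAC2 and CTH lost, 0.315 and 0.154) and 6 in H1703 (36.4%; CTH lost, 0.226).

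**Figure D2:**
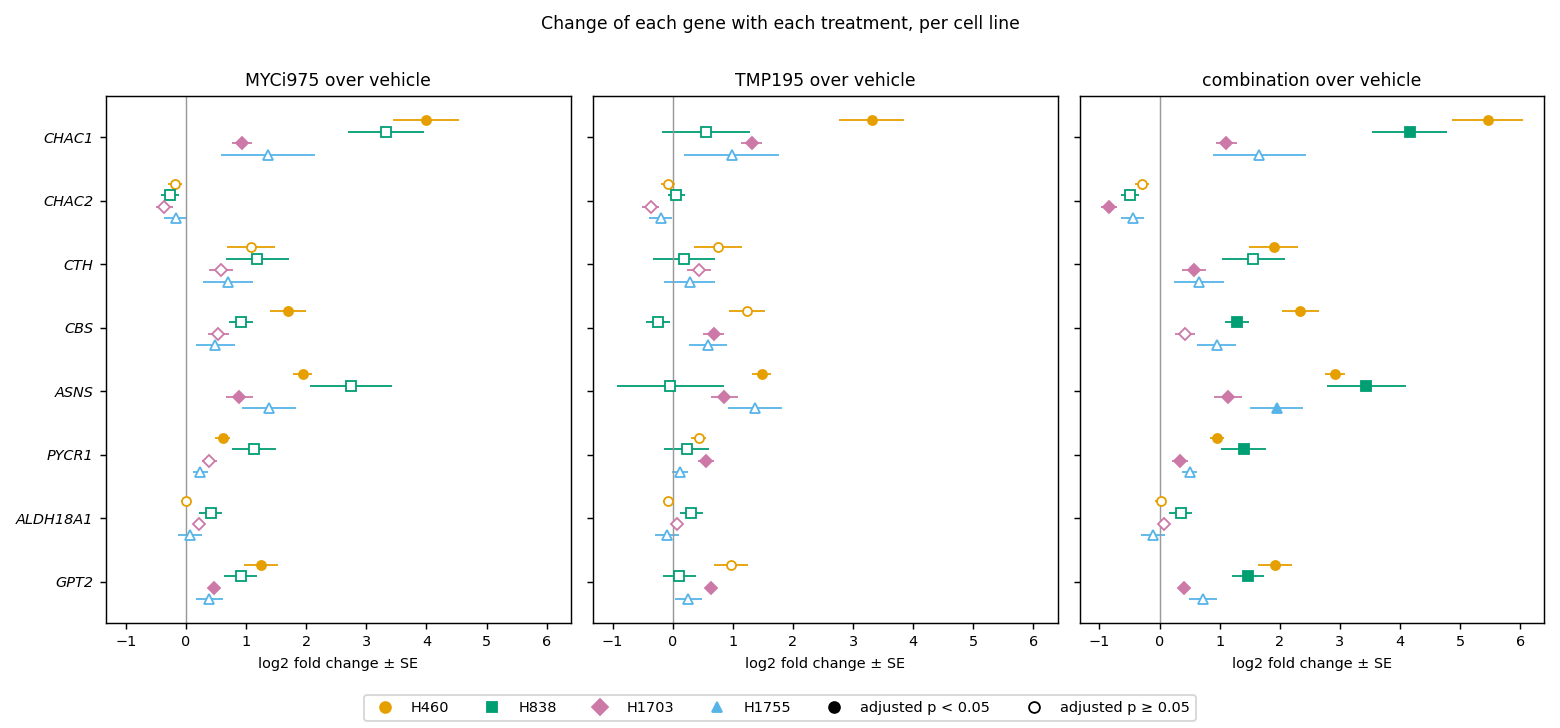
Log2 fold change over vehicle with its SE (x axis) of each gene (rows) in each line (symbol and colour), for MYCi975, TMP195 and the combination; filled symbols are called at an adjusted p below 0.05. ASNS in H460 is drawn from the fit with a term for library sets. CHAC1 has the longest changes, up to 5.46, CHAC2 lies left of 0 with the combination, and ALDH18A1 lies near 0.

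CHAC1, the stress-induced glutathione-cleaving enzyme, had the largest changes of the 8 in H460 and H838. Vehicle held only 0.226 to 0.553 CPM of it in H460 and 0.248 to 0.414 in H838, which rest on few reads. The sizes of these changes are uncertain to that extent. In H460 it had 19.1, 17.7, 12.6 and 13.8 CPM with the combination, 6.89, 6.13, 1.6 and 8.37 with MYCi975 and 2.64, 1.92, 2.45 and 7.21 with TMP195, against 0.246, 0.226, 0.553 and 0.397 in vehicle. No treated library overlapped vehicle. The log2 fold changes were 5.46 ± 0.59 (adjusted p = 6.86e-05), 4 ± 0.55 (0.00966) and 3.31 ± 0.54 (0.00845). The TMP195 value was 2.71 without TMP195 replicate 4, the highest of its group. In H838 CHAC1 had 8.08, 3.25, 5.26 and 7.43 CPM with the combination, 3.07, 0.808, 1.23 and 8.16 with MYCi975 and 0.357, 0.397, 0.341 and 0.809 with TMP195, against 0.248, 0.414, 0.295 and 0.38 in vehicle. Combination and MYCi975 libraries all lay above vehicle, and TMP195 libraries overlapped it. The combination change of 4.16 ± 0.62 was called (adjusted p = 0.00259). The MYCi975 change of 3.33 ± 0.63 was not (adjusted p = 0.332). It was 3.37 ± 0.48 with the term for library sets (adjusted p = 0.0051) and 2.62 ± 0.59 within the largest set (0.228). In H1703, where CHAC1 was already at 7.94 ± 2.43 CPM in vehicle, the 12 treated libraries held 13.2 to 21.1 CPM, all above vehicle. The rise was 1.11 ± 0.17 with the combination, 0.93 ± 0.17 with MYCi975 and 1.31 ± 0.17 with TMP195 (adjusted p = 6.73e-05, 0.00186 and 8.78e-05). In H1755 CHAC1 had 1.04, 0.842, 1.55 and 2.05 CPM with the combination, against 0.301, 0.121, 0.317 and 0.914 in vehicle. Those groups overlapped, and the change of 1.66 ± 0.77 was not called in the fit of group means (adjusted p = 0.406). It was called with the replicate block (1.82 ± 0.4, adjusted p = 0.00103), with the term for library sets (1.82 ± 0.46, 0.00929) and within the largest set (2.15 ± 0.57, 0.0282). The calls of CHAC1 against vehicle in H460, H838 and H1703 held whichever library was left out. In H460 the adjusted p then reached 0.0485 with MYCi975 and 0.0448 with TMP195. Those 2 calls ended in the fit of the 9 H460 libraries without EEF1G counts. The CHAC1 calls in H1703 ended in 1 fit of all 64 libraries.

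CHAC2, its constitutive relative, moved the other way. In H1703 it had 3.85, 5.12, 5.01 and 3.79 CPM with the combination, against 8.67, 7.2, 7.7 and 7.8 in vehicle, with no overlap, and fell by 0.84 ± 0.14 on the log2 scale (adjusted p = 0.000215, held whichever library was left out). The combination values in the other lines were -0.29 ± 0.12 in H460, -0.49 ± 0.15 in H838 and -0.45 ± 0.19 in H1755, none called in edgeR's fits of group means (adjusted p = 0.129, 0.0764 and 0.338). DESeq2 called the H838 value (adjusted p = 0.0322). Leaving out combination replicate 3, the highest of its group, gave -0.41 in H460 with a call (adjusted p = 0.0271). Averaged over libraries, CHAC2 stood at 7.94 ± 0.898 CPM with the combination in H838, against 11.1 ± 1.93 in vehicle, and at 7.9 ± 0.695 with the combination in H1755, against 10.8 ± 2.78 in vehicle. With the single agents the CHAC2 values ran from -0.37 to 0.06, none called in the fits of group means.

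Of the transsulfuration genes, CBS, which makes cystathionine, changed most in H460. It had 5.6, 8.87, 6.77 and 7.41 CPM with the combination, 4.97, 4.72, 1.92 and 6.76 with MYCi975 and 3.29, 3.06, 2.94 and 3.85 with TMP195, against 1.19, 1.36, 1.15 and 1.95 in vehicle. Every combination and TMP195 library lay above vehicle, and MYCi975 replicate 3 fell within it. The combination change was 2.34 ± 0.31 (adjusted p = 0.000239) and the MYCi975 change 1.7 ± 0.3 (adjusted p = 0.0196). The MYCi975 call ended without MYCi975 replicate 1 or 4 or vehicle replicate 1 or 2 (adjusted p = 0.0505 to 0.082). Both of these H460 calls ended in the fit of the 9 H460 libraries without EEF1G counts. The TMP195 change of 1.23 ± 0.3 was not called (adjusted p = 0.0761) but was with the replicate block (1.25 ± 0.26, adjusted p = 0.0178). In H838 CBS had 12.2, 9.14, 9.92 and 12.6 CPM with the combination, against 4.51, 4.4, 5.16 and 3.93 in vehicle, a rise of 1.29 ± 0.2 (adjusted p = 0.00268). With MYCi975 it had 9.18, 7.12, 5.53 and 11.8 CPM there, all above vehicle, and the change of 0.92 ± 0.2 was not called in edgeR's fit of group means (adjusted p = 0.332). It was called with the term for library sets (0.96 ± 0.19, adjusted p = 0.0308) and by DESeq2 (0.91 ± 0.21, 0.017), and not within the largest set (0.79 ± 0.18, 0.228). TMP195 libraries held 3.97, 3.63, 4.19 and 3.4 CPM in H838, a change of -0.24 ± 0.2 (adjusted p = 0.63). In H1703 CBS rose with TMP195, at 13.7 ± 2.64 CPM, against 8.56 ± 1.55 in vehicle (0.68 ± 0.17, adjusted p = 0.0172). That call ended without TMP195 replicate 2 or vehicle replicate 1 or 4 (adjusted p up to 0.0633), and in 1 fit of all 64 libraries. In H1755 the combination value of 0.95 ± 0.32 was not called in the fit of group means (adjusted p = 0.181). It was called with the replicate block (1 ± 0.17, adjusted p = 8.3e-05), with the term for library sets (0.99 ± 0.21, 0.00202) and within the largest set (0.84 ± 0.23, 0.0296). GRCh38 holds a near-identical copy of CBS, CBSL, which has no row in the table, so the CBS values are uncertain to the extent that reads were split or dropped.

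CTH, which releases cysteine from cystathionine, rose with the combination in H460, with 35, 33.9, 26.5 and 47.8 CPM, against 9.01, 7.56, 8.52 and 13.4 in vehicle (1.9 ± 0.41, adjusted p = 0.00599). The groups did not overlap, but the call ended in the fit of the 9 H460 libraries without EEF1G counts. In H838 the combination libraries held 29.2, 14.5, 23 and 63.7 CPM, against 7.86, 8.07, 9.28 and 19.1 in vehicle. The groups overlapped, replicate 4 was the highest in both, and the change of 1.56 ± 0.52 was called with the replicate block (1.48 ± 0.23, adjusted p = 0.000367) and not in the fit of group means (0.113). In H1703, the line with the least CTH, the combination libraries held 2.49 to 3.61 CPM, all above the 1.44 to 2.32 CPM of vehicle. The rise of 0.58 ± 0.2 (adjusted p = 0.03) was lost without combination replicate 2 or 4 or vehicle replicate 3 (adjusted p = 0.0695 to 0.105). It was also lost with no filter, within the largest library set and in 1 fit of all 64 libraries. MYCi975 replicate 4 stood far from its group in H838 (60.6 CPM, against 8.99 to 16.2 in replicates 1 to 3). No single-agent change of CTH was called in the fits of group means, the log2 values running from 0.19 to 1.19.

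ASNS could be read only within libraries counted alike. A read-through gene on the same strand (ENSG00000284707) shares 44.6% of the ASNS exon bases in GENCODE 29. In the 7 H460 libraries with EEF1G counts, ASNS held 1123 to 7809 reads, 87.9 to 100% of the number given to the read-through gene. In the other 57 libraries ASNS held 1 to 316 reads and the read-through gene 4 to 36, so the deposited ASNS values there are based on few reads and no ASNS level is set against another gene or against the 7 libraries. Within the 7, ASNS had 202 and 201 CPM with MYCi975, 136 and 126 with TMP195 and 365 with the combination, against 46 and 55.4 in vehicle. Within the other 9 H460 libraries it had 1.26 and 5.72 CPM with MYCi975, 1.31 and 5.43 with TMP195 and 5.35, 5.14 and 8.82 with the combination, against 0.737 and 0.994 in vehicle. Every treated library was above vehicle in both sets, and the ratio of the combination mean to the vehicle mean was 7.19 in the first and 7.44 in the second. With the term for library sets the H460 changes were 2.92 ± 0.17 with the combination, 1.94 ± 0.16 with MYCi975 and 1.48 ± 0.16 with TMP195 (adjusted p = 5.43e-10, 5.64e-07 and 4.17e-06). In the fit of group means they were 1.9 ± 1.93, 1.99 ± 1.94 and 1.39 ± 1.91, none called.

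**Figure D3:**
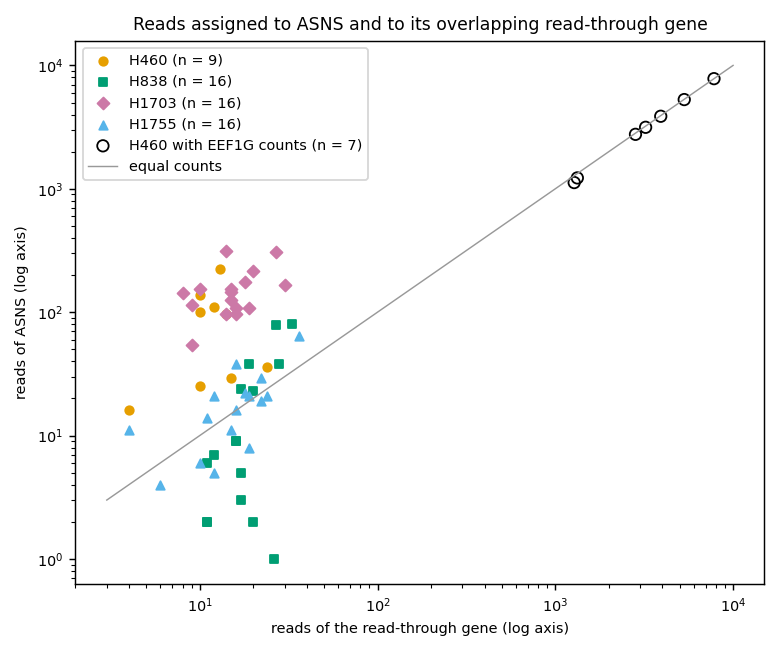
Reads assigned to ASNS (y, log axis) against reads assigned to the overlapping read-through gene (x, log axis) in the 64 libraries, with a line of equal counts. The 7 H460 libraries with EEF1G counts lie along the line at 1123 reads or more, and the other 57 hold at most 316 ASNS reads.

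Among the lines counted in 1 way, ASNS had 1.45, 1.15, 1.62 and 2.86 CPM with the combination in H838, against 0.372, 0.155, 0.0982 and 0.0317 in vehicle, or 24 to 80 reads per library against 1 to 9. The rise of 3.44 ± 0.66 (adjusted p = 0.00928) was 4.29 without vehicle replicate 1, which had the most ASNS reads of its group. Its call ended in 1 fit of all 64 libraries. In H1755 the combination libraries held 1.17, 1.04, 0.916 and 2.26 CPM, against 0.402, 0.241, 0.265 and 0.457 in vehicle (1.95 ± 0.44, adjusted p = 0.0328). That call held only when the library left out was combination replicate 3, the adjusted p for the other 7 being 0.0562 to 0.117. It also ended with no filter and in 1 fit of all 64 libraries. The same change was 1.94 ± 0.36 with the replicate block (adjusted p = 0.000199). In H1703 ASNS rose with all 3 treatments, at 7.67 ± 2.29 CPM with the combination, 6.36 ± 1.81 with MYCi975 and 6.23 ± 1.08 with TMP195, against 3.43 ± 0.812 in vehicle (1.14 ± 0.23, 0.89 ± 0.23 and 0.86 ± 0.23). The combination call held whichever library was left out, and all 3 calls ended in 1 fit of all 64 libraries. The MYCi975 call ended without MYCi975 replicate 4 or vehicle replicate 2 (adjusted p = 0.088 and 0.0668), and the TMP195 call without TMP195 replicate 4 or vehicle replicate 1 or 2 (0.0563 to 0.0871).

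PYCR1, which forms proline, rose with the combination in H460, with 188, 179, 173 and 180 CPM, against 103, 86.8, 89.4 and 91.1 in vehicle (0.96 ± 0.12, adjusted p = 0.000142). With MYCi975 it had 160, 133, 111 and 161 CPM there, all above vehicle as well (0.61 ± 0.12, adjusted p = 0.0285). The MYCi975 call ended in 6 of the 8 fits that left out 1 library (all but MYCi975 replicates 2 and 3, adjusted p = 0.0591 to 0.0962). It also ended with no filter, in the 9 H460 libraries without EEF1G counts and in 1 fit of all 64 libraries. PYCR1 shares 14.1% of its exon bases with MYADML2 on the same strand and 15.6% with an antisense gene (ENSG00000263585), so some of its reads are uncertain, but the H460 vehicle libraries with EEF1G counts (103 and 86.8 CPM) did not stand apart from the other 2 (89.4 and 91.1). In H838 the combination libraries held 63.4, 47, 61.5 and 124 CPM, against 24.9, 28.4, 26.9 and 32.7 in vehicle. The rise of 1.4 ± 0.37 (adjusted p = 0.0473) kept its call only when combination replicate 2 was the library left out (0.0698 to 0.143 for the other 7), and was 1.29 ± 0.2 with the replicate block (adjusted p = 0.000393). In H1703 PYCR1 rose with TMP195 to 235, 215, 219 and 169 CPM, against 148, 145, 152 and 124 in vehicle (0.55 ± 0.13, adjusted p = 0.0114). The combination group (223, 158, 196 and 150 CPM) overlapped vehicle there. Its rise of 0.34 ± 0.13 (adjusted p = 0.0459) was lost without combination replicate 1 or 3 or any 1 vehicle library (0.0579 to 0.178). That rise was also lost with RLE scaling, and both H1703 calls of PYCR1 ended in 1 fit of all 64 libraries. In H1755 it stood at 63.2, 71.5, 77.5 and 80.6 CPM with the combination, against 56.7, 47.7, 54 and 48.3 in vehicle, above vehicle in every library (0.5 ± 0.13, adjusted p = 0.0666; 0.49 ± 0.08 and 4.6e-05 with the replicate block).

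ALDH18A1, which makes the precursor of both proline and ornithine, was not called with any treatment in any line in the fits of group means. Its combination values were 0.02 ± 0.09 in H460, 0.35 ± 0.19 in H838, -0.11 ± 0.2 in H1755 and 0.08 ± 0.08 in H1703. In H460 it had 145, 149, 138 and 176 CPM with the combination, against 146, 138, 148 and 170 in vehicle. Replicate 4 was the highest in both groups. In H1703 the MYCi975 libraries (140, 119, 119 and 128 CPM) lay above vehicle (114, 104, 102 and 114), and the change of 0.22 ± 0.08 was called with the replicate block (0.21 ± 0.06, adjusted p = 0.00896, against 0.078 in the fit of group means).

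GPT2, which joins alanine and glutamate metabolism, rose in all 4 lines with the combination in the blocked or set-term fits. In H460 it had 60.5, 64.9, 49.3 and 64.2 CPM with the combination and 34.5, 36.6, 18.9 and 60.6 with MYCi975, against 14.9, 16.4, 16.8 and 14.9 in vehicle. Every treated library was above every vehicle library. The combination change was 1.92 ± 0.28 (adjusted p = 0.000486) and the MYCi975 change 1.25 ± 0.28 (adjusted p = 0.0481). The MYCi975 call held only when MYCi975 replicate 3, the lowest of its group, was left out (0.0828 to 0.15 for the other 7). It also ended with RLE scaling, with no filter and in the 9 H460 libraries without EEF1G counts. In H838 GPT2 had 50.5, 29.6, 41.1 and 54.9 CPM with the combination, against 18.5, 16.4, 15 and 13.9 in vehicle (1.47 ± 0.27, adjusted p = 0.0074). In H1703 the spread was small, with 22 ± 2.46 CPM for the combination, 22.7 ± 0.308 for MYCi975 and 25.5 ± 1.22 for TMP195, against 16.3 ± 0.804 in vehicle (0.41 ± 0.09, 0.47 ± 0.09 and 0.64 ± 0.09, all called). These 3 calls and the combination calls in H460 and H838 held whichever library was left out. The 3 GPT2 calls in H1703 ended in 1 fit of all 64 libraries. The GPT2 combination call in H460 ended in the 9 libraries without EEF1G counts. In H1755 it had 30.2, 35.2, 36.9 and 44.5 CPM with the combination, against 18.4, 21.8, 24.2 and 24.3 in vehicle, without overlap (0.72 ± 0.23, adjusted p = 0.159; 0.72 ± 0.12 and 4.6e-05 with the replicate block).

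The combination was also set against each single agent. Against MYCi975 none of the 8 genes was called in any line in edgeR's fits of group means, with 1.06% of all genes called in H460, 0.0242% in H838, 0.0544% in H1755 and 1.7% in H1703. At an unadjusted p below 0.05 stood 4 of the 8 in H460, 1 in H838, 0 in H1755 and 1 in H1703, and DESeq2 called 1 in H460 and 1 in H1703. CHAC1 was 1.46 ± 0.49 higher with the combination than with MYCi975 in H460 (adjusted p = 0.191). The replicate numbers of these 2 groups paired in H1755 alone. With the term for library sets 6 of the 8 were higher with the combination in H460 (10.8% of all genes called), CHAC1 by 1.69 ± 0.31, CTH by 1.02 ± 0.18 and ASNS by 0.98 ± 0.15 (adjusted p = 0.00117, 0.000855 and 0.000267), with CBS, PYCR1 and GPT2 at 0.00631 to 0.0377. That term gave 0 calls among the 8 in H838 (0.369%) and CHAC2 lower in H1703 (-0.54 ± 0.15, adjusted p = 0.0188, 14.4%), and in H1755 both the replicate block and the set term gave 0 (3.19% and 0.984%). Within the largest set PYCR1 and GPT2 were higher in H1755 (adjusted p = 0.0413 and 0.0139, 0.867% of all genes called), CHAC2 was lower in H1703 (0.0246, 17%) and 0 of the 8 were called in H838 (0.442%). Leaving out MYCi975 replicate 4 gave calls for GPT2 in H460 (0.99, adjusted p = 0.0424) and for CHAC1 and GPT2 in H838 (1.82 and 1.03, adjusted p = 0.0449 and 0.0188). In H1703 it gave a call for CHAC2 (-0.57, adjusted p = 0.00874). Against TMP195, CHAC1 and PYCR1 were higher with the combination in H460 (2.15 ± 0.5 and 0.53 ± 0.12, adjusted p = 0.0308 and 0.0249, with 3.91% of all genes called), and CHAC1 and CBS in H838 (3.61 ± 0.59 and 1.53 ± 0.2, adjusted p = 0.0324 and 0.0106, with 0.0436% called). In H1703 and H1755 none was called, where 4.87% and 0% of all genes were, with 2 and 1 of the 8 at an unadjusted p below 0.05 and 1 and 0 called by DESeq2. With the replicate block 7 of the 8 were called in H838 (CHAC2 lower, 7.11% of all genes called), but 3 of the 4 TMP195 libraries there belong to the set with the other header spelling. With the term for library sets CHAC1 alone kept its call in H838 (3.28 ± 0.57, adjusted p = 0.0468, 0.0242% of all genes called), and CBS lost it (1.36 ± 0.25, 0.0563). With the block PYCR1 and GPT2 were higher in H1755 (1.36%), while the set term gave 0 calls among the 8 there (0.0198%). The set term gave 6 calls in H460 (all but CHAC2 and ALDH18A1, all higher, 17.1% of all genes) and CHAC2 lower in H1703 (18.5%), and the largest set alone gave 0 calls in H1703 (11.1%) and H1755 (0.0207%). The calls in the fits of group means were sensitive to single libraries. In H460 CHAC1 and PYCR1 lost the call in 6 of 8 fits without 1 library, all but TMP195 replicate 4 and combination replicate 3 (adjusted p up to 0.0981 and 0.0796), and CHAC1 was 2.75 without TMP195 replicate 4. In that line GPT2 gained a call without it (1.19, adjusted p = 0.0436). In H838 CHAC1 kept the call only without combination replicate 2, and CBS lost it without any 1 TMP195 library or combination replicate 1 (adjusted p up to 0.194 and 0.0916).

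The combination was then compared with the sum of both single-agent log2 changes. In H1703 GPT2 lay below that sum (-0.7 ± 0.13, adjusted p = 0.0325, 1 of 8 genes with 0.144% of all genes called). All 8 values were below 0 in that line, with a median of -0.6 against -0.03 over all genes. CHAC1 stood at -1.14 ± 0.23 (adjusted p = 0.059), CBS at -0.8 ± 0.24 and PYCR1 at -0.61 ± 0.18 (both 0.343). The GPT2 call ended in 13 of 16 fits that left out 1 library (adjusted p up to 0.0976), the exceptions being MYCi975 replicate 4 and combination replicates 3 and 4. CHAC1 gained a call without combination replicate 3 or vehicle replicate 1 (-1.25 and -1.35). In H460, H838 and H1755 none of the 8 and 0%, 0% and 0% of all genes were called by edgeR, and DESeq2 called none of the 8. Of the 8, 1, 1 and 0 had an unadjusted p below 0.05, CHAC1 in H460 (-1.85 ± 0.69) and CBS in H838 (0.62 ± 0.28).

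Whether a treatment changed a gene unequally across lines was tested in 1 fit of all 64 libraries. With the combination CHAC1, CBS and GPT2 differed (3 of 8, with 8.41% of all genes called), their log2 changes spanning 4.35, 1.92 and 1.51 between the highest and lowest line (adjusted p = 0.000247, 0.00284 and 0.00607). H460 had the largest and H1703 the smallest combination change of all 3, with 5.46 against 1.11 for CHAC1, 2.34 against 0.42 for CBS and 1.92 against 0.41 for GPT2. With MYCi975 and TMP195 edgeR called none of the 8, where 0.154% and 0.519% of all genes were called, and 2 of the 8 had an unadjusted p below 0.05 with each. DESeq2 was not run for this test. CHAC1 spanned 3.07 with MYCi975 (adjusted p = 0.153) and 2.76 with TMP195 (0.373).

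Replicate 4 stood apart for several of these genes with MYCi975. In H838 it had 8.16 CPM of CHAC1, against 0.808 to 3.07 in replicates 1 to 3, and 131 CPM of PYCR1, against 34.6 to 43.8. GPT2 there stood at 53.7 CPM, against 17.5 to 26.8. In H1755 MYCi975 replicate 4 had 2.99 CPM of CHAC1, against 0.281 to 0.65, and 48.8 CPM of GPT2, against 20.4 to 24.2. In H460 the MYCi975 library that stood apart was replicate 3, on the low side, with 1.6 CPM of CHAC1 and 18.9 of GPT2. Between same-numbered libraries, CHAC1 in H838 was higher with MYCi975 than vehicle by 3.24, 0.84, 1.8 and 4.14 (log2 CPM) in replicates 1 to 4. The numbers did not pair these groups, and those of replicate 3 lie in different library sets. The part of the library sets in these differences was not tested.

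**Figure D4:**
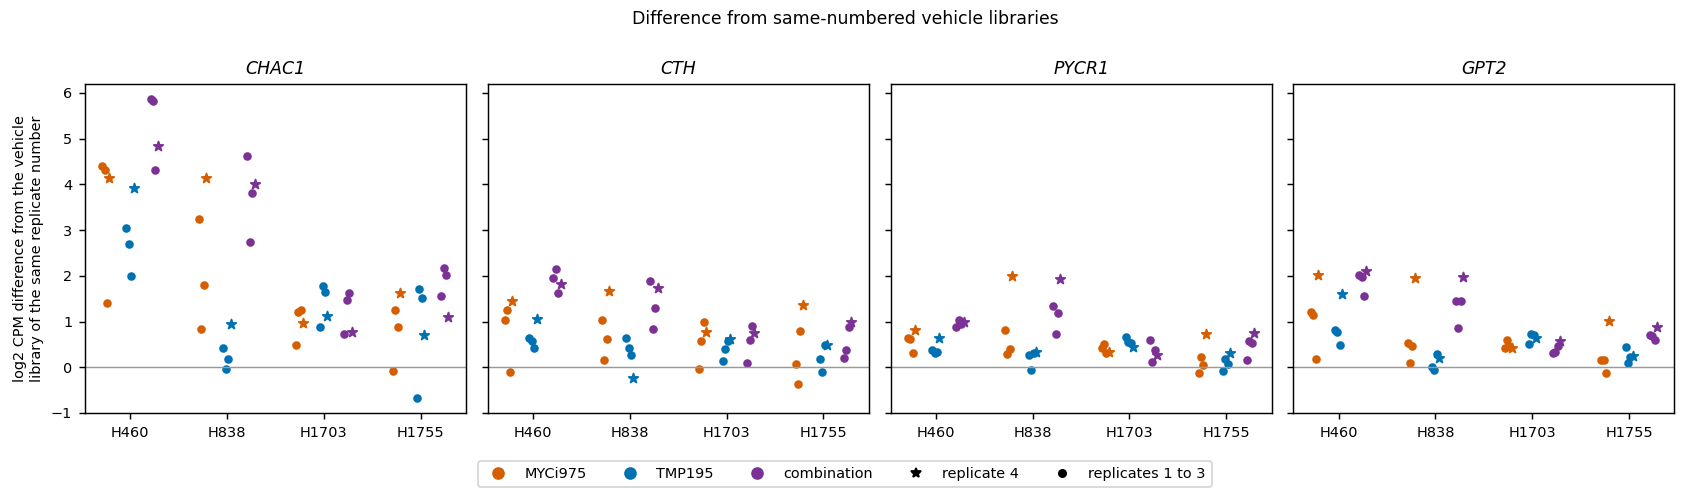
Difference in log2 CPM (prior count 2) between each treated library and the vehicle library of the same replicate number (y) for CHAC1, CTH, PYCR1 and GPT2 in each line (x); stars are replicate 4. With MYCi975 the star is the highest point in H838 and H1755 for all 4 genes, at 4.14 and 1.62 for CHAC1. The numbers did not pair MYCi975 with vehicle in H838, nor the combination with vehicle in H460 and H1703.

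CHAC1, CTH, CBS, PYCR1 and GPT2 moved together. Over the 16 group means of log2 CPM, each centred on its line, Pearson's r between any 2 of these 5 was 0.92 to 0.99. Over the 64 libraries it was 0.61 to 0.93. With the 5, CHAC2 had r of -0.69 to -0.74 over the group means and -0.48 to -0.55 over the 64 libraries. ALDH18A1 had 0.22 to 0.45 over the group means. CHAC2 and ASNS had -0.78 and -0.48, but the ASNS group means of H460 mix libraries counted in different ways. These points share 4 lines, the treatments and the library sets, and no p is given. Among 10335 genes the 3 most like CHAC1 were ADM2, a peptide hormone (r = 0.987), PCK2, the mitochondrial phosphoenolpyruvate carboxykinase (0.982), and CARS1, the cysteinyl-tRNA synthetase (0.977). CTH was most like MTHFD2, GRB10 and RNF41 (0.979 to 0.972), CBS most like PSAT1, PCK2 and SARS1 (0.977 to 0.974), PYCR1 most like YARS1, PHGDH and MORN4 (0.971 to 0.966), and GPT2 most like SHMT2, CARS1 and PCK2 (0.984 to 0.978). CHAC2 was most like IDH3A, BRI3BP and ACSBG1 (0.976 to 0.975), and ALDH18A1 most like GOSR1, BTRC and TMED8 (0.846 to 0.824). The ASNS order (IDH2, LRP1 and MORN1) mixes libraries counted in different ways, and IDH2, first at 0.947 over group means, had r = 0.093 over the 64 libraries. Over the 64 libraries 2 of the 3 nearest genes stayed for CHAC1 and PYCR1, 1 for CTH and ALDH18A1 and none for the other 4.

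Other genes of the same pathways were counted from lists chosen with earlier results of these data known. Of 27 genes of glutathione and cysteine metabolism, 3 of 22 tested rose and 3 fell with the combination in H460, 0 rose and 1 of 21 fell in H838, 2 rose and 7 of 22 fell in H1703, and 0 rose and 3 of 23 fell in H1755. Over all genes tested 15.7%, 3.24%, 38.3% and 1.69% were called in those lines, so the H838 and H1703 shares of this list were near those of all genes. GCLC, the catalytic subunit of the first enzyme of glutathione synthesis, fell with the combination in H460 to 77.2 CPM, against 122 in vehicle (-0.66 ± 0.1, adjusted p = 0.000597), and in H1755 to 127 CPM, against 187 (-0.56 ± 0.09, adjusted p = 0.0059). In H1703 it stood at 46.4 CPM with the combination, against 42 in vehicle (0.13 ± 0.08, adjusted p = 0.237). GSR, which regenerates reduced glutathione, fell in H460, H838 and H1703 (-0.2 ± 0.06, -0.33 ± 0.08 and -0.5 ± 0.13, adjusted p = 0.0333, 0.0389 and 0.0061). OPLAH, which returns 5-oxoproline to glutamate, averaged 30.5 CPM with the combination in H1703, against 12.9 in vehicle (1.23 ± 0.12, adjusted p = 2.01e-06), and rose in H460 (0.67 ± 0.15, adjusted p = 0.00746). GGT7 rose in both lines as well (0.63 ± 0.15 and 0.79 ± 0.22).

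Of 23 genes of glutamine, glutamate, aspartate and alanine metabolism, 3 of 21 tested rose and 1 fell with the combination in H460, 1 rose and 0 of 21 fell in H838, 6 rose and 4 of 20 fell in H1703, and 0 rose and 1 of 22 fell in H1755. The shares over all genes were again 15.7%, 3.24%, 38.3% and 1.69%, and those of the list in H460 and H838 were close to them. GOT1, the cytosolic aspartate aminotransferase, averaged 98.9 CPM with the combination in H1703, against 38.2 in vehicle (1.36 ± 0.13, adjusted p = 1.02e-06), and rose in H460 (0.78 ± 0.17, adjusted p = 0.00705). Its mitochondrial isoenzyme GOT2 fell in H1703 to 93.5 CPM, against 153 in vehicle (-0.73 ± 0.14, adjusted p = 0.00048). GPT, the cytosolic isoenzyme of GPT2, had an adjusted p of 0.0962 to 1 over the 12 comparisons with vehicle, and stood at 0.931 CPM with the combination in H460, against 0.897 in vehicle. GFPT1, the entry enzyme of hexosamine synthesis, rose with the combination in H460, H838 and H1703 (1.29 ± 0.31, 0.95 ± 0.21 and 0.51 ± 0.09). KYAT3 rose in H1703 (1.14 ± 0.15), and ASRGL1, which breaks down asparagine, fell in H460 and H1703 (-0.57 ± 0.17 and -0.69 ± 0.11). ASNSD1 had an adjusted p of 0.499 to 1 over the 12 comparisons.

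Of 16 genes of proline, ornithine and arginine metabolism, none was called higher with the combination in any line (edgeR), and 1 of 13 fell in H460, 0 of 13 in H838, 0 of 13 in H1755 and 7 of 14 in H1703, where 15.7%, 3.24%, 1.69% and 38.3% of all genes were called in either direction. At an unadjusted p below 0.05 stood 3, 5, 2 and 8 of them in those lines. With the single agents 2 fell with MYCi975 and 1 rose and 1 fell with TMP195, all among 14 in H1703, where 10.2% and 9.65% of all genes were called. PYCR3, which also forms proline, fell with the combination in H1703 (-0.77 ± 0.2, adjusted p = 0.00583). ODC1, the first enzyme of polyamine synthesis, averaged 165 CPM with the combination in H1703, against 264 in vehicle (-0.7 ± 0.1, adjusted p = 2.81e-05). OAZ2 and P4HA3 fell there too (-0.68 ± 0.1 and -0.58 ± 0.17), and P4HA2 rose with TMP195 (0.31 ± 0.07).

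Of 13 stress response factors, 8 of 13 tested rose with the combination in H460 (list median 0.98) and 4 of 13 in H838 (0.63), 8 of 12 rose and 3 fell in H1703 (0.79), and none of 12 was called in H1755 (0.4; edgeR, 5 of the 12 at an unadjusted p below 0.05). The medians over all genes were -0.03 to 0.02, with 15.7%, 3.24%, 38.3% and 1.69% of all genes called in those lines. With MYCi975 2 rose in H460 (1.09% of all genes called) and 6 in H1703 with 1 lower (10.2%), and with TMP195 2 rose in H460 (1.13%), 1 in H838 (0.572%) and 7 in H1703 (9.65%). ATF4 averaged 481 CPM with the combination in H460, against 244 in vehicle (0.98 ± 0.13, adjusted p = 0.000196), 256 against 116 in H838 (1.15 ± 0.17, adjusted p = 0.00236) and 359 against 197 in H1703 (0.85 ± 0.09, adjusted p = 4.89e-06). In H1755 it stood at 218 CPM with the combination, against 158 (0.46 ± 0.19, adjusted p = 0.339). TRIB3 rose with the combination by 1.92 ± 0.28, 2.47 ± 0.53 and 1.87 ± 0.11 in H460, H838 and H1703, and DDIT3 by 1.9 ± 0.4 and 2.5 ± 0.3 in H460 and H1703. ATF3 rose by 2.89 ± 0.29 and 1.94 ± 0.21 in H460 and H1703 and had 0.16 ± 0.13 in H838 (adjusted p = 0.535).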

How the data were processed

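Stranded total RNA libraries were made from 4 lung cancer lines, per the labels' protocols. The authors deposited raw read counts per gene, made with Trimmomatic, STAR and featureCounts on GRCh38 (hg38), per the submitters' processing notes. Versions, annotation release and strand setting are not given in the sources used here. 64 columns were matched to samples by line, treatment and replicate. H838 TMP195 replicate 1 carries the tag H883 and was grouped by its title.

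Counts were tested with edgeR 4.0.16 (R 4.3.3) quasi-likelihood fits, with TMM scaling and filterByExpr, 1 fit per line with 4 group means and Benjamini-Hochberg adjustment over all genes tested, called below 0.05. All 8 genes passed the filter in every line. Line differences came from 1 fit of 64 libraries, and vehicle pairs from a fit of the vehicle libraries. CPM used TMM-scaled totals, except for the line markers, whose totals were unscaled. Exon lengths and overlaps came from GENCODE 29, which is not known to be the release used for counting. Scripts were tested on simulated data. Python 3.11.15, numpy 2.4.6, pandas 2.3.3 and matplotlib 3.10.9 were used, and DESeq2 1.42.0 as an alternative.

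The labels state no shared day behind a replicate number. The numbers partly follow the library sets, different-numbered pairs were not compared, and pairing beyond the sets was not tested. Numbers were taken to pair 2 groups where the deviations of every same-numbered pair correlated above 0.1. Every H1755 comparison met this (lowest r 0.402), as did each single agent against vehicle in H460 (MYCi975 0.904, TMP195 0.917) and H1703 (0.141 and 0.162), and, in H838, TMP195 and the combination against vehicle (0.126 and 0.158) and against each other (0.105). Elsewhere a term for library sets was used. Other alternatives were RLE scaling, no filter, a fit of all 64 libraries, the largest library set alone, and each replicate or library left out. A fit of the 9 H460 libraries without EEF1G counts was chosen after seeing the data.

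The 8 genes and the pathway lists were chosen with earlier results of these data known. Besides the 8 genes, the text names for each the 3 genes of highest Pearson r over 16 group means of log2 CPM (prior count 2, mean of at least 5 CPM), up to 4 genes per list called in the most of the 12 vehicle comparisons, and isoenzymes, of which 1 is not reported here. Line markers and the overlapping genes are named as checks.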

Additional observations from a re-analysis of the deposited data

Results flagged for a closer look

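Each of the 8 genes was looked at in each of the 16 groups of 4 libraries. In 15 of these 128 cases, 1 library lay far from the other 3 (its gap to the nearest, over the range of the group, above Dixon's critical value). Chance gives about 1 in 20 for a single gene and group. The 8 genes share the same libraries, so the 15 are not independent and their number is not set against chance. H1755 MYCi975 replicate 4 was flagged for CHAC1, PYCR1, ALDH18A1 and GPT2. Of the 15, 12 were replicate 4. With MYCi975, replicate 4 stood high for CHAC1 in H1755 (2.99 CPM), CTH in H838 (60.6), ASNS in H1703 (9.07), PYCR1 in H838 (131) and H1755 (79.8), ALDH18A1 in H1755 (174) and GPT2 in H1755 (48.8). With TMP195 it stood high for CHAC1 in H460 (7.21) and H838 (0.809). With the combination it stood high in H1755 for CTH (11.8) and ALDH18A1 (149), and in vehicle for CTH in H838 (19.1). The 3 other libraries were MYCi975 replicate 2, low for CHAC1 in H1703 (13.2) and high for CBS in H1755 (5.21), and combination replicate 1 of H460, high for ASNS (365), the only combination library of that line with EEF1G counts.

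The log2 change with the combination differed between the 4 lines for CHAC1 (range 4.35), CBS (1.92) and GPT2 (1.51) in edgeR's test over all 64 libraries.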

How the results depend on the processing

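Calls among the 8 genes are summed over the 4 lines. With MYCi975 the 7 calls were 12 with DESeq2, 19 with the replicate block and 17 with the library set term. The share of all genes called with MYCi975 rose too. In H460 it was 1.09% in the fit of group means, 6.52% with the block and 7.5% with the set term. In the same order it was 10.2%, 25.6% and 24.5% in H1703 and 0.0643%, 9.23% and 2.41% in H1755. Shares given for other comparisons stand in their paragraphs. None is given for DESeq2, no filter, the fit of all 64 or fits that left libraries out. The set term and replicate block have none beyond the sum or between lines, and the block none where numbers did not pair. Counts without a share are not read as results about the 8 genes. With TMP195 the 6 calls were 12 with the replicate block, 13 with the set term and 3 in 1 fit of all 64 libraries. With the combination the 17 calls were 27, 28 and 11 under those 3 settings. Combination against MYCi975 had 0 calls, 2 with DESeq2, 5 with the replicate block and 7 with the set term. Combination against TMP195 had 4 calls, 11 with DESeq2, 7 with no filter, 17 with the replicate block, 8 with the set term and 7 in the fit of all 64. The 1 call beyond the sum became 2 with DESeq2, 4 with the replicate block, 3 with the set term and 0 in the fit of all 64. Line differences with MYCi975 (0) became 2 with the set term and 3 with the replicate block, those with TMP195 (0) became 3 with the replicate block, and those with the combination (3) became 7 with the set term and 6 with the replicate block. Over all 4 lines the replicate block includes comparisons whose numbers did not pair. Leaving out a replicate number gave 2 to 6 calls with MYCi975, 2 to 8 with TMP195, 9 to 22 with the combination, 0 to 7 against MYCi975, 0 to 11 against TMP195, 0 to 3 beyond the sum, and 0, 0 to 2 and 1 to 5 line differences with MYCi975, TMP195 and the combination. It gave 32 to 35 of the 38 calls between lines in vehicle. Leaving out 1 library gave 4 to 8, 4 to 6, 15 to 18, 0 to 2, 2 to 5 and 0 to 2 for the first 6 comparisons. The cause of these moves was not tested.

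Of the 30 calls against vehicle, DESeq2, the replicate block and the set term each kept 30, RLE scaling 28, no filter 26 and the fit of all 64 libraries 14. The 9 H460 libraries without EEF1G counts kept 2 of 10. Without all libraries of replicate 1, 2, 3 or 4, 13, 16, 20 and 26 of the 30 were kept. When 1 library was left out at a time, 20 of 30 kept the call in every such fit. None changed sign under these settings. ASNS in H460, combination against MYCi975, was -0.09 and turned to 0.98 with the library set term, by whose construction libraries counted alike are compared. ASNS outside the 7 H460 libraries rests on few reads, as does CHAC1 in vehicle in H460, H838 and H1755.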
